A study of Mus musculus with 2 samples.

Results

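Vegfa, Kdr, Flt1, Nrp1, Angpt2, Tek, Pecam1, Sele, Selp and Vcam1 encode a growth factor, receptors, a vessel ligand and adhesion molecules of blood vessels, and they were followed here in the cells of MC38 tumors with and without the STING agonist MSA-2. The 10 genes were taken by symbol from the 32285 features of the deposited count matrices, and all 10 were found. Each of the 2 groups was 1 droplet-based 3′ single-cell RNA library, made from dissociated subcutaneous tumors of C57BL/6 mice. MC38 is a mouse colon carcinoma line, and MSA-2 is a small molecule that activates STING, the adaptor that drives type I interferon and NF-kB signaling after cytosolic DNA sensing. The MSA-2 tumors were injected intratumorally with the agonist 3 times, at intervals of 3 days, and were collected on day 7. The other group is labelled untreated, while the series record describes an intratumoral vehicle of saline with 10% DMSO. Tumors of 3 mice, or 3 samples, were pooled into each library, so neither library holds replicates, and the C57BL/6 mice were 6 to 8 weeks of age per the methods. No test between the groups was possible. The values below carry exact 95% intervals that cover counting error only and say nothing about the spread between tumors or between cells.

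After filtering, 13334 untreated and 13393 MSA-2 cells were kept, with a median of 8298.5 and 9271 unique molecular identifiers (UMIs) per cell. The 2 libraries shared 53 barcodes, none of them in an endothelial cell. The labels call the material tumor cells, and the methods speak of sorting and of immune cells without naming a marker, whereas the files also hold tumor, fibroblast and endothelial cells, whose shares a sort can set. A cell was called endothelial-gated when it had a UMI in at least 4 of 12 endothelial markers, among them Cdh5, Plvap and Egfl7, and at least 0.1% of its UMIs in them. None of the 10 genes was used in the gate or among the variable genes of the clustering. The gate held 63 untreated cells (0.472% of kept cells, interval 0.363% to 0.604%) and 81 MSA-2 cells (0.605%, 0.481% to 0.751%), of which 62 and 77 lay in the cluster named endothelial-like. The other classes were clusters named by their likeness to a cell type in marker lists (tumor-like, macrophage-like, fibroblast-like and so on), and the ending is left out in the text. The tumor class (6582 and 7047 cells) was named from Gng11, Ccn1 and Anxa1, since the keratin genes Krt8, Krt18 and Krt7 were each at or close to 0 there in both libraries. A gate on tumor markers kept only 39 and 22 cells, so it is unsure that all clusters of this class are cancer cells.

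Endothelial cells of a growing vessel read VEGF-A through the receptor tyrosine kinase VEGFR2, encoded by Kdr, with neuropilin-1 (Nrp1) as a coreceptor and VEGFR1 (Flt1) as a high-affinity receptor that largely holds the ligand back. Angiopoietin-2 (Angpt2) is released by activated endothelium and acts on TIE2 (Tek), in most settings against the stabilizing ligand angiopoietin-1. Inflamed endothelium displays P-selectin (Selp), E-selectin (Sele) and VCAM-1 (Vcam1), which catch rolling leukocytes and hold them through carbohydrate ligands and integrins, while PECAM-1 (Pecam1) sits at endothelial junctions and takes part in transmigration.

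In endothelial-gated cells, the VEGF receptors were lower and the adhesion genes Selp and Vcam1 higher in the MSA-2 library. Of the 10 genes, 7 had a lower and 3 a higher level in the MSA-2 library. The interval of the ratio lay below 0 for 6 genes (Kdr, Flt1, Nrp1, Angpt2, Pecam1 and Sele) and above 0 for 2 (Selp and Vcam1), and it included 0 for Vegfa and Tek. Over the 8015 genes with at least 20 UMIs in the gate, the interval lay below 0 for 16.9% and above 0 for 10.8%, and it is narrower for genes with more UMIs. Levels are in CPM, which is a gene's UMIs for each 1000000 UMIs of the gated cells in that library, and ratios are log2 of MSA-2 over untreated. With 1 CPM added to both levels, Selp was at least 2-fold higher, and Kdr and Nrp1 were at least 2-fold lower. With 10 CPM added Selp, whose ratio is close to the limit, was no longer past it, while the 2 lower genes were. Over the same 8015 genes, 6.29% were at least 2-fold higher and 6.44% at least 2-fold lower, and the median ratio was -0.13.

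**Figure D1:**
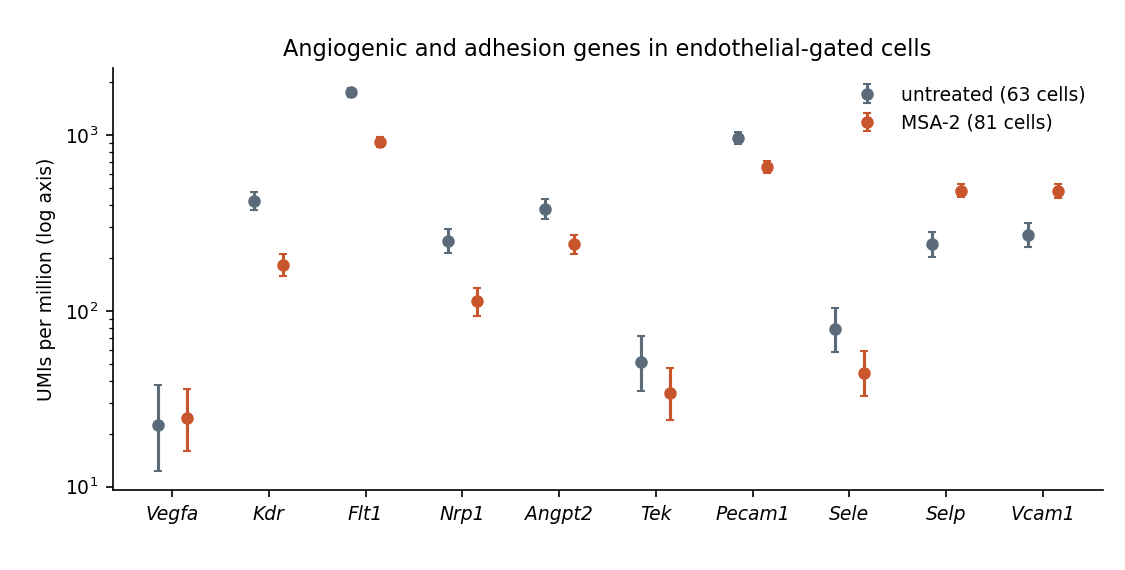
Level of each of the 10 genes in endothelial-gated cells, in CPM on a log axis, for the untreated (63 cells) and MSA-2 (81 cells) library; bars are exact 95% Poisson intervals that cover counting error only. The intervals of the libraries lie apart for Kdr, Flt1, Nrp1, Angpt2 and Pecam1, with untreated higher, and for Selp and Vcam1, with MSA-2 higher.

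Kdr, the main signaling receptor for VEGF-A, had 264 untreated and 194 MSA-2 UMIs in the gate (423 and 183 CPM). Its ratio was -1.21 (-1.48 to -0.93), and the median cell held 3 UMIs without and 2 with MSA-2. Fewer cells also carried the receptor when all were thinned to 1500 UMIs, a step that puts cells at one depth and for which 61 and 78 gated cells were deep enough. The untreated share with a Kdr UMI was then 49.2% (36.1% to 62.3%) and the MSA-2 share 30.8% (20.8% to 42.2%), against 84.1% and 70.4% before thinning. NK/T cells, which should lack Kdr, had no Kdr UMI in either library. Thinned to 1500 UMIs, this was 0 of 1440 untreated and 0 of 269 MSA-2 cells (0%, up to 0.256% and 1.36%). Before thinning, the median NK/T depths were 3289 and 4431 UMIs, against 7611 and 9217 in the gate.

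Flt1 was the VEGF receptor with most UMIs in the gate, with 1097 untreated and 970 MSA-2 UMIs (1757 and 916 CPM), a ratio of -0.94 (-1.07 to -0.81). The median cell held 15 and 9 Flt1 UMIs. Most gated cells carried it in both libraries, 57 of 63 and 77 of 81. Thinned to 1500 UMIs, the shares were 80.3% (68.2% to 89.4%) and 70.5% (59.1% to 80.3%), and thinned to 1000 UMIs they were 74.6% and 55.6%, so the order of the shares turned with depth. Nrp1 had 156 and 120 UMIs (250 and 113 CPM), a ratio of -1.14 (-1.5 to -0.79), and it was detected in 47 of 63 and 43 of 81 cells, or in 29.5% and 16.7% after thinning to 1500 UMIs. Among the 5086 genes with at least 50 UMIs in the gate, ordered by ratio, Kdr stood at percentile 2.28, Nrp1 at 2.89 and Flt1 at 5.62 from the lowest. The distributions of all 3 receptors overlapped widely between the libraries, as the plot of single gated cells shows.

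**Figure D2:**
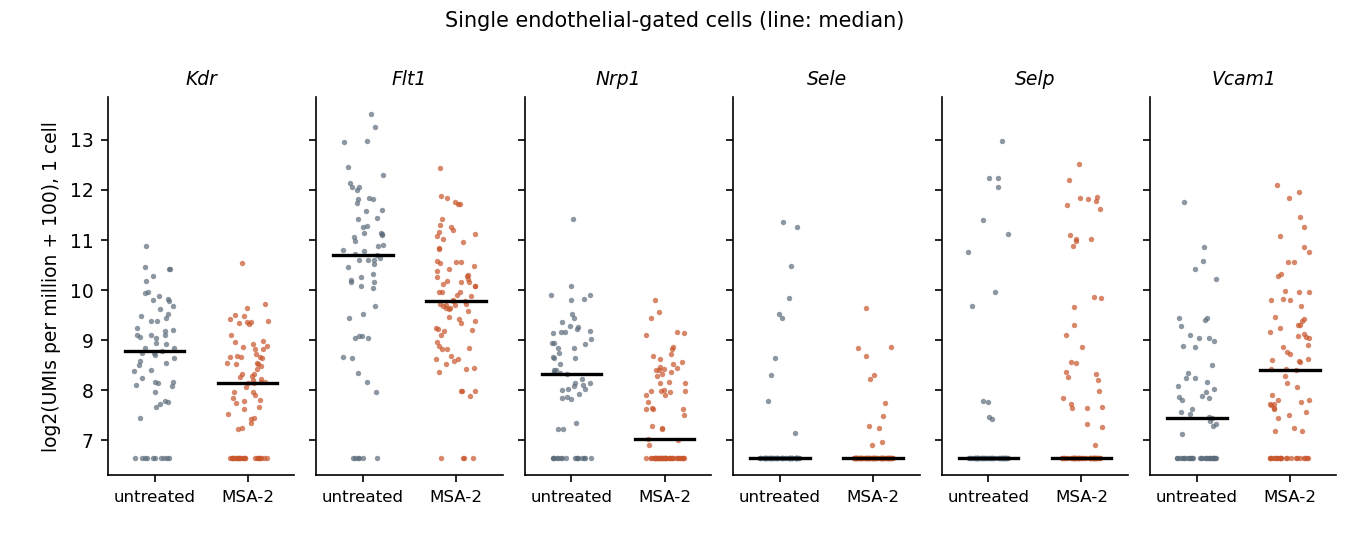
Kdr, Flt1, Nrp1, Sele, Selp and Vcam1 in single endothelial-gated cells of the untreated (63 cells) and MSA-2 (81 cells) library, as log2 of CPM with 100 added; each point is a cell and the line is the median. The median is lower with MSA-2 for Kdr, Flt1 and Nrp1 and higher for Vcam1, while Sele and Selp are at 0 in most cells of both libraries and Selp is high in 5 untreated and 15 MSA-2 cells with at least 10 UMIs.

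Angpt2, the TIE2 ligand that endothelial cells make themselves, had 238 and 253 UMIs (381 and 239 CPM), a ratio of -0.67 (-0.94 to -0.41). Angpt2 was carried by 32 of 63 untreated and 46 of 81 MSA-2 cells. After thinning to 1500 UMIs the shares were 29.5% (18.5% to 42.6%) and 21.8% (13.2% to 32.6%), so the order of the shares turned with depth. Tek, its receptor, was sparse, with 32 and 36 UMIs (51.3 and 34.0 CPM). Its ratio of -0.59 had an interval of -1.32 to 0.14, and no difference was detectable at this depth. Pecam1, the junctional adhesion molecule found on nearly every endothelial cell, had 602 and 698 UMIs (964 and 659 CPM) and was carried by 59 of 63 and 77 of 81 cells, or by 50 of 61 and 50 of 78 (64.1%) after thinning to 1500 UMIs and by 52.4% and 54.3% at 1000 UMIs. Its ratio was -0.55 (-0.71 to -0.39).

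The 12 gate markers were themselves lower in the MSA-2 gate, with 4476 and 5474 UMIs, or 0.717% and 0.517% of all UMIs, a ratio of -0.47 (-0.53 to -0.41). Emcn and Ptprb, both endothelial membrane proteins, had ratios of -0.82 and -0.94, whereas Esam, a junction protein, had -0.09. Scaled to the UMIs of these markers instead of all UMIs, a choice made after the data were seen, Kdr (-0.73), Nrp1 (-0.67) and Flt1 (-0.47) still had intervals below 0. Angpt2 (-0.20, -0.46 to 0.06), Pecam1 (-0.08, -0.24 to 0.08) and Sele (-0.35, -0.96 to 0.26) no longer did, and Selp (1.49) and Vcam1 (1.30) had higher ratios.

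Selp, the selectin that endothelial cells store in Weibel-Palade bodies, had 149 untreated and 512 MSA-2 UMIs (239 and 484 CPM). Its ratio was 1.02 (0.75 to 1.29). It was carried by 13 of 63 untreated and 34 of 81 MSA-2 cells, and after thinning by 11.5% (4.74% to 22.2%) and 23.1% (14.3% to 34.0%). Most of its UMIs came from few cells: those with at least 10 UMIs numbered 5 and 15 and held 80.5% and 89.1% of the Selp UMIs. The mean of single-cell levels, in which every cell counts alike, gave 477 and 573 CPM and a ratio of only 0.27.

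Sele, the cytokine-induced selectin, went the other way in the gate. It had 49 untreated and 47 MSA-2 UMIs (78.5 and 44.4 CPM), a ratio of -0.82 (-1.43 to -0.21). The carriers were 10 of 63 and 12 of 81 cells, and a single cell held 21 Sele UMIs in each library, 42.9% and 44.7% of the total. With every cell counted alike the Sele ratio was -2.20. Most Sele cells carried Selp too, 8 of 10 untreated and 11 of 12 with MSA-2, whereas 8 of 13 and 11 of 34 Selp cells carried Sele.

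Vcam1, the ligand of the integrin VLA-4, had 169 and 509 UMIs (271 and 481 CPM), a ratio of 0.83 (0.57 to 1.09). It was carried by 36 of 63 and 59 of 81 cells, and after thinning by 26.2% (15.8% to 39.1%) and 38.5% (27.7% to 50.2%), against 3.19% and 6.32% of NK/T cells. Cells with at least 10 Vcam1 UMIs numbered 5 untreated and 21 MSA-2. Among cells with Selp, 9 of 13 untreated and 31 of 34 MSA-2 cells also held Vcam1.

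Vegfa itself was close to background in the gate. It had 14 untreated and 26 MSA-2 UMIs (22.4 and 24.6 CPM), a ratio of 0.13 (-0.86 to 1.18). After thinning, 0 of 61 untreated and 1 of 78 MSA-2 gated cells held a Vegfa UMI, at or below the 6.39% and 1.86% of NK/T cells, so these counts were not read as expression by the gated cells.

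Both selectin genes lie on chromosome 1, their starts 67030 bases apart and on the same strand, while the receptor genes Kdr and Flt1 both lie on chromosome 5 but far apart. The mm10 positions are chr1:164048234-164057677 for Sele, chr1:164115264-164150026 for Selp, chr5:75932827-75978458 for Kdr and chr5:147561604-147726011 for Flt1. The 250 bases before their starts are shown as the proximal promoters of the selectins, which had opposite ratios, and of the receptors, which both had ratios below 0 (RefSeq, GRCm38.p6, strand of the gene). Of the 10 genes, 7 had a promoter entry. Capitals mark matches, on either strand, to the TATAAA box or to the NF-kB consensus.
Sele, chr1:164047984-164048233, plus strand: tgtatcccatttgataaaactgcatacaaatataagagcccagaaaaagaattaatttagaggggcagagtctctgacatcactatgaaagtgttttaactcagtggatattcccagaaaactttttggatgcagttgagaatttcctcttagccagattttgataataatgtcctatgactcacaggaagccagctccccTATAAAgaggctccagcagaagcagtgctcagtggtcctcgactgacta
Selp, chr1:164115014-164115263, plus strand: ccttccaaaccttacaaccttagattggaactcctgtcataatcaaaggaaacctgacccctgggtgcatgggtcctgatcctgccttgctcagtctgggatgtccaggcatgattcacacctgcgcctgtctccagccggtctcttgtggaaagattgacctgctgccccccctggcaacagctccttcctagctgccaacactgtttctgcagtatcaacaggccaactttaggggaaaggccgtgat
Kdr, chr5:75978456-75978705, minus strand: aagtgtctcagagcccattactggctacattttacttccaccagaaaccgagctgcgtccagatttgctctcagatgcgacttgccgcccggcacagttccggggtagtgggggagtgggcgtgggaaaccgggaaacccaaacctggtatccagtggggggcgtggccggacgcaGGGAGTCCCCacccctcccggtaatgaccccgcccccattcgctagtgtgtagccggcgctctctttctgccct
Flt1, chr5:147726012-147726261, minus strand: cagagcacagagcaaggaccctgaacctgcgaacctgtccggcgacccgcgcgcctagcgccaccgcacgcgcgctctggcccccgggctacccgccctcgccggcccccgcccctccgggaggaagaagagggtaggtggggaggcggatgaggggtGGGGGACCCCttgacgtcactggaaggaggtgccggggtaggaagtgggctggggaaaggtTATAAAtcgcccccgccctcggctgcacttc
The TATAAA box began 49 bases before the Sele start and 31 before that of Flt1, and 12.4% of 32851 promoter windows of this length hold it. The NF-kB consensus was matched in Kdr (74 bases before the start) and Flt1 (92 bases), as in 7.25% of all windows, and in neither selectin window. The GC content was 40.4% for Sele, 53.6% for Selp, 61.6% for Kdr and 70.4% for Flt1, against a median of 52.4% over all windows. A match describes these letters only, and the windows were not searched for NF-kB sites that differ from the consensus. The lack of a match therefore does not show the lack of a site.

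The gated cells differed among themselves in markers of endothelial subtypes. Tip cells lead a sprouting vessel, and a list of 7 of their markers (Esm1, Apln, Nid2, Cxcr4, Unc5b, Pgf and Dll4) summed to 2081 CPM untreated and 428 with MSA-2, a ratio of -2.28 (-2.44 to -2.13). A venous list (Ackr1, Nr2f2, Ephb4, Vcan, Lrg1 and Cpe) went from 477 to 841 CPM, a ratio of 0.82 (0.63 to 1.01). Lrg1 (141 and 406 UMIs) and Vcan (45 and 171) held most of these UMIs and were also higher in neutrophils and Ly6c2 monocytes, at 58.3 and 429 CPM of Lrg1 in neutrophils and 58.7 and 748 of Vcan in Ly6c2 monocytes. Vcan was high in the tumor class too, at 230 and 425 CPM. Without Lrg1 and Vcan, a choice made after the data were seen, the list had a ratio of 0.72 (0.40 to 1.04) in the gate, against -0.25 in the tumor class. Of its 4 genes, Ackr1 went from 23 to 167 UMIs (2.10, 1.46 to 2.79), while the intervals of Nr2f2 (0.10), Ephb4 (0.24) and Cpe (-0.83) included 0. With a limit of 2 markers, set after the data were seen, tip-marked cells numbered 48 of 63 in the untreated gate (76.2%, 63.8% to 86.0%) and 44 of 81 in the MSA-2 gate (54.3%, 42.9% to 65.4%). Those with at least 2 venous markers numbered 31 of 63 (49.2%, 36.4% to 62.1%) and 63 of 81 (77.8%, 67.2% to 86.3%), or 14 (22.2%, 12.7% to 34.5%) and 31 (38.3%, 27.7% to 49.7%) without Lrg1 and Vcan.

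Selp was concentrated in cells with fewer than 2 tip markers, which held 83.2% and 75.6% of its UMIs. In these 15 untreated and 37 MSA-2 cells, Selp stood at 1525 and 1108 CPM, a ratio of -0.46 (-0.76 to -0.16), although it was higher over the gate as a whole. In the cells with at least 2 tip markers it stood at 46.0 and 176 CPM, a ratio of 1.94 (1.31 to 2.62). Since the tip markers were themselves lower with MSA-2, the split does not set like cells side by side, and its values describe which gated cells held the UMIs. The cells with few tip markers were also shallower, with a median of 3155 and 6604 UMIs against 8806.5 and 11175.5 in the others.

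By the same split, Kdr in cells with at least 2 tip markers stood at 460 and 185 CPM, a ratio of -1.32 (-1.63 to -1.01). In cells with fewer tip markers it had only 14 and 63 UMIs (172 and 180 CPM), and the difference between these ratios was not tested. Split by venous markers, Kdr had ratios of -1.22 (-1.53 to -0.91) in cells with at least 2 and -0.98 (-1.69 to -0.32) in the others. The venous markers were themselves higher with MSA-2, so this split does not set like cells side by side either. Flt1 was lower on both sides of the tip split, with ratios of -0.85 (-0.99 to -0.71) and -0.58 (-0.95 to -0.20). Vcam1 was higher in cells with at least 2 tip markers (201 and 311 CPM, ratio 0.63, 0.30 to 0.98). In the others Vcam1 stood at 738 and 825 CPM (0.16, -0.25 to 0.59). Sele stood at 22.1 and 43.7 CPM in cells with at least 2 tip markers, on 12 and 31 UMIs. In the others Sele stood at 455 and 45.8 CPM, on 37 and 16 UMIs.

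Angpt2 and Selp rarely shared a cell in the untreated gate, where 1 of 32 Angpt2 cells carried Selp, against 38.7% of the cells without Angpt2. In the MSA-2 gate 20 of 46 Angpt2 cells carried Selp, against 40.0% of the cells without. Sele was carried by 1 of 32 untreated Angpt2 cells, against 29.0% of the cells without Angpt2, and by 8 of 46 with MSA-2, against 11.4%. By venous markers, 89.3% and 99.4% of the Selp UMIs lay in cells with at least 2 of them, at 303 and 537 CPM.

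The other genes of vessel growth mostly had lower levels in the MSA-2 gate, and leukocyte adhesion genes as a list did not move in one direction. In the tip and growth list, 10 of 10 genes had enough UMIs, 6 were at least 2-fold lower and 0 higher, and the median ratio was -1.5. The 6 are all among the 7 tip markers summed above and are no further evidence, while of the other 4 genes Aplnr, the apelin receptor, had 0.52 (0.11 to 0.94). Esm1, a secreted proteoglycan of tip cells, stood at 878 and 114 CPM (-2.94), and Apln, the ligand of the apelin receptor, at 466 and 80.3 (-2.54). Calcrl, a receptor for adrenomedullin, had -0.20 (-0.52 to 0.12), and Pdgfb, which recruits pericytes, -0.43.

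The other VEGF family genes had 5 of 6 tested, 3 at least 2-fold lower and 0 higher, with a median of -1.53. Pgf, a ligand of VEGFR1 that is also in the tip list, stood at 160 and 33.1 CPM (-2.28), Vegfc, a ligand of VEGFR3, at 123 and 37.8 (-1.71), and Flt4, which encodes VEGFR3, at 78.5 and 26.4 (-1.57). Nrp2, the second neuropilin, had -0.45. Of 10 genes of Notch, BMP and sphingosine-1-phosphate signaling, 5 were at least 2-fold lower and 0 higher, with a median of -1.01, and 3 were lower with 10 CPM added. Dll4, the Notch ligand of tip cells, stood at 226 and 90.7 CPM (-1.32) and Bmpr2 at 287 and 161 (-0.84), while Eng (-0.22) and S1pr1 (0.07) had intervals that included 0.

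Of 16 genes of leukocyte adhesion and transmigration, 13 were tested, 1 was at least 2-fold higher and 0 lower, with a median of -0.21. Icam1, the ligand of LFA-1, stood at 261 and 358 CPM, a ratio of 0.46 (0.19 to 0.73). Icam2 (-0.54), Cd34 (-0.83) and Mcam (-0.48) had lower levels with MSA-2. The 1 gene past 2-fold was Ackr1, the chemokine-binding receptor of venules, at 36.8 and 158 CPM (2.10, 1.46 to 2.79), which also leads the venous list. In the quiescence and tone list, 9 of 10 were tested, 2 were higher and 0 lower, and the median was 0.35, with the flow-induced factor Klf2 at 0.35 and Edn1, which encodes the vasoconstrictor endothelin-1, at 1.86. Klf4, also induced by flow, had -0.83 (-1.09 to -0.56) and the cell-cycle regulator Rgcc -0.32 (-0.51 to -0.12). Guidance genes and angiogenesis inhibitors had 10 of 12 tested, 0 higher and 1 lower (median -0.26), the 1 being the semaphorin receptor Plxnd1 (-1.09). The other angiopoietin-related genes had 2 of 5 tested, 0 past 2-fold in either direction and a median of 0.35, and the leukocyte counter-receptors 2 of 9, with Cd44 higher (1.20) and Itgb1 at -0.68.

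Over all 77 genes of these lists, 60 were tested, 4 were at least 2-fold higher and 14 at least 2-fold lower, against 6.29% and 6.44% of all genes, and their median was -0.44. Interferon-stimulated and NF-kB target genes were read beside them as the known outputs of STING signaling. Of 14 interferon genes, 9 were at least 2-fold higher and 0 lower (median 2.80), with Rsad2, an antiviral enzyme, at 128 and 3319 CPM and the chemokine Cxcl10 at 809 and 5759. Cxcl9 was an exception, at 2009 and 1273. Of 14 NF-kB genes, 7 were higher and 0 lower (median 1.0), with the chemokines Ccl2 at 229 and 2075 and Cxcl1 at 320 and 1165. Sele and Vcam1 are textbook NF-kB targets in endothelium, and of these Vcam1 had a ratio near the median of the list and Sele one below 0.

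**Figure D3:**
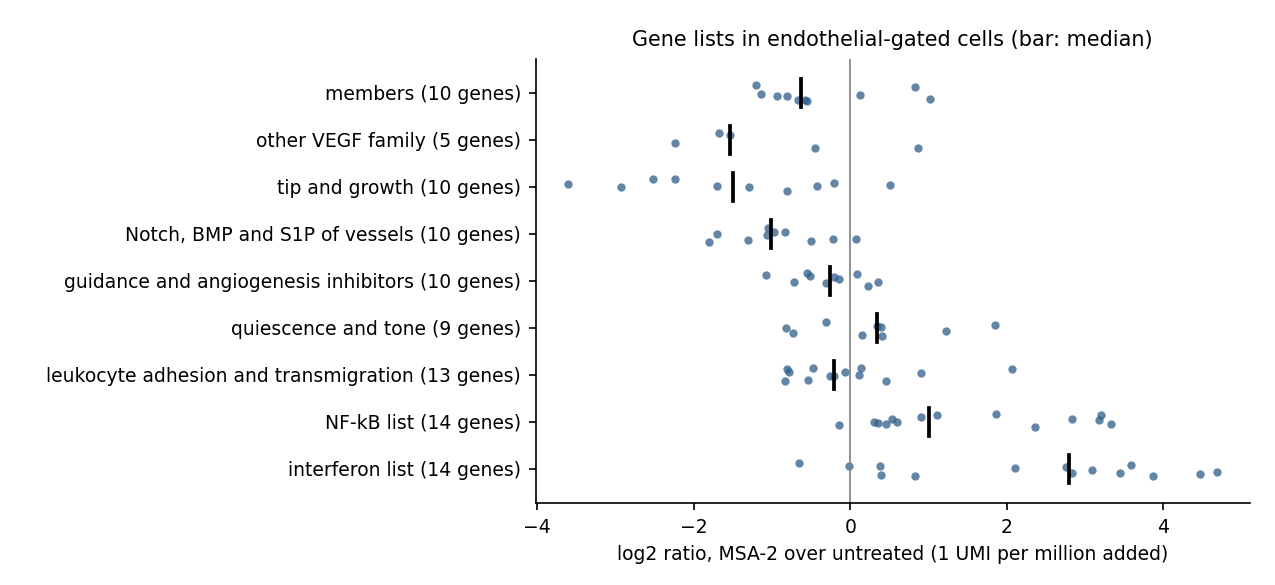
Log2 ratio of MSA-2 over untreated in endothelial-gated cells, with 1 CPM added, for the genes of each list with at least 20 UMIs; each point is a gene and the bar is the median. The tip and growth (median -1.5) and other VEGF family (-1.53) lists lie lowest and the interferon list (2.80) highest.

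Markers of other cell types also differed between the libraries in the gate, and the source of their RNA was not tested. The 10 neutrophil markers summed to 22.4 CPM untreated and 801 with MSA-2, with 7 markers undetected without MSA-2 and 0 with it, and the per-cell range reached 192 and 33223 CPM. S100a9 and S100a8, the abundant calgranulin genes of neutrophils, had 0 untreated and 391 and 257 MSA-2 UMIs. The exact lower limits of their ratios were 5.96 and 5.35. The S100a9 and S100a8 UMIs were spread over 61 and 60 of the 81 cells. The neutrophil class held 41 untreated and 2468 MSA-2 cells. It left out a subcluster of 22 and 178 cells that scored as neutrophils but was led by keratin genes. The same neutrophil list summed to 29.1 and 504 CPM in the tumor class and to 97.1 and 1295 in macrophages. Slpi and Cxcl5 (99 and 82 UMIs) and Gzmd (152 UMIs in 2 cells) completed the 5 genes with the highest ratio, each at 0 untreated. The macrophage list went from 812 to 203 CPM (1 and 0 of 10 markers at 0), and the lowest ratios were those of the MHC class II genes H2-Ab1, Cd74, H2-Eb1 and H2-Aa and of Cxcr4, with Cd74 at 703 and 32.1 CPM. These genes were also lower outside the gate. Over all kept cells Cd74 stood at 1378.5 and 61.0 CPM, H2-Ab1 at 683 and 26.9, and Cxcr4 at 18.1 and 3.34. The macrophage list summed to 759 and 213 CPM in the tumor class.

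Fibroblast markers summed to 476 and 962 CPM, with all 8 detected in both libraries, and mural markers to 128 and 204. The tumor list summed to 2198 and 2389 CPM in the gate, and to 3007 and 3565 in the tumor class. Vcam1 was measured in both fibroblast and neutrophil classes, and Selp had 0 and 3 UMIs in fibroblasts and 1 and 52 in neutrophils. Without the gated cells that held at least 3 mural or fibroblast markers, a choice made after the data were seen that left 52 and 44 cells, the ratios were 1.41 for Selp, 0.80 for Vcam1, -1.26 for Kdr, -0.76 for Flt1, -1.22 for Nrp1 and -1.86 for Sele. The part of RNA from other cell types in the values of the 10 genes was not tested.

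Over the whole tumor the genes differed in how much of their RNA lay in endothelial-gated cells. The gated cells held 67.8% and 72.2% of all Flt1 UMIs, 77.6% and 63.4% of Kdr, 88.2% and 78.0% of Selp and 94.2% and 51.6% of Sele. The gate held 48.4% and 45.5% of Angpt2 UMIs, and the far more numerous tumor cells 40.0% and 45.0%. The Angpt2 level in the tumor class was only 1.33 and 1.52 CPM. In NK/T cells it was 1.68 and 0.62 CPM, on 10 and 1 UMIs. Tek had 30.5% and 14.9% of its UMIs in the gate and 49.5% and 40.9% in the tumor class, where its level was below 1 CPM, and 14.3% and 38.0% in fibroblasts. For Vegfa, Nrp1 and Vcam1 most UMIs lay in the tumor class, as named above. It held 73.2% and 83.8% of Vegfa, 67.5% and 86.7% of Nrp1 and 88% of Vcam1 UMIs in both libraries, against 0.547% and 0.874% of Vcam1 in the gate.

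For 5 of the 10 genes the interval of the ratio lay above 0 in one cell class and below 0 in another, as it did for 35.3% of the 8015 genes with at least 20 UMIs in the gate. Of the 5, Kdr and Sele were above 0 only in classes where they stood at 5.01 CPM or less, which was not read as expression, so the count rests on Vegfa, Nrp1 and Pecam1. Vegfa was lower with MSA-2 in the tumor class, in macrophages and in Ly6c2 monocytes, and higher in fibroblasts. In the tumor class it stood at 127 and 92.3 CPM, a ratio of -0.46 (-0.50 to -0.43), and thinned cells with a UMI went from 17.6% to 13.3% (77.9% and 70.1% unthinned). Of 11 tumor clusters, 10 had an interval below 0 and 0 above. The cluster led by Csmd3 and Robo2 was the other one, at 153 and 159 CPM. In the tumor class, 18204 genes had at least 20 UMIs, of which 2.61% were at least 2-fold higher and 1.64% at least 2-fold lower, and with 1 CPM added to both levels, as for these shares, none of the 10 genes was among them. Without the added CPM, Sele (4.81, 2.22 to 10.2) and Selp (2.36, 1.5 to 3.34) had ratios past 2-fold, at levels below 1 CPM.

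In macrophages Vegfa stood at 261 and 140 CPM, a ratio of -0.90 (-1.0 to -0.80). The class held 3156 and 1232 cells and 19.9% and 5.04% of all Vegfa UMIs. The macrophage cluster led by Apoe and C1qc had 171 and 61.8 CPM of Vegfa. With 1 CPM added, none of the 7 members with enough UMIs was at least 2-fold higher or lower in macrophages, against 6.14% and 3.69% of 13201 genes. Without it, Kdr (1.19), Angpt2 (1.01) and Flt1 (-1.09) had ratios past 2-fold, at levels of 7.52 CPM or less.

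Ly6c2 monocytes had 270 and 41.4 CPM of Vegfa, a ratio of -2.70 (-3.09 to -2.34). They were split into subclusters that hardly overlapped between the libraries, 594 untreated and 17 MSA-2 cells in one against 7 and 351 in the other, so the ratio compares largely different clusters. With coarser clusters (resolution 0.5) it was -1.36 and with a marker gate -1.38. Neutrophils had 253 and 51.1 CPM (-2.31, -3.11 to -1.38) on only 13 and 241 UMIs, an interval that stays below 0 when the TMM shift of this class (1.07) is added, and NK/T cells 63.2 and 26.0 (-1.28, -1.78 to -0.82, or -0.63 with a marker gate). Fibroblasts had 82.6 and 138 (0.74, 0.53 to 0.96), and held 7.55% of all Vegfa UMIs in the MSA-2 library. With a marker gate in place of the cluster, of whose cells 83.0% lay in tumor clusters, the fibroblast ratio was -0.50. NK/T cells are not a known main source of Vegfa, and their level is given as a measure of background.

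**Figure D4:**
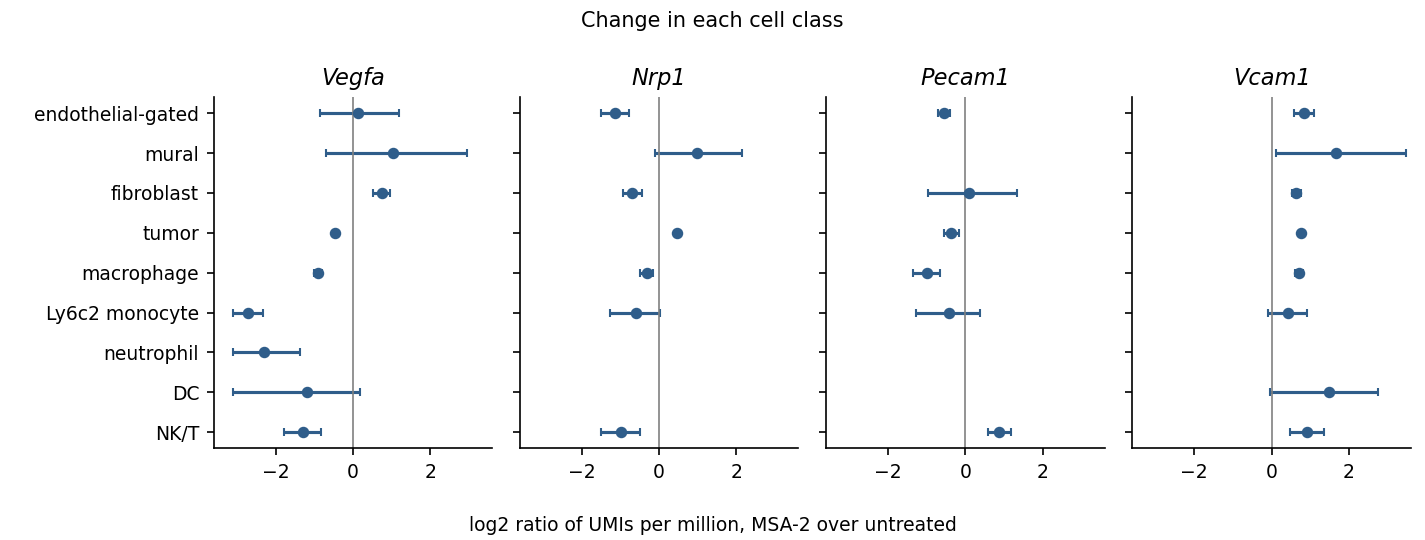
Log2 ratio of CPM, MSA-2 over untreated, for Vegfa, Nrp1, Pecam1 and Vcam1 in each cell class with at least 3 UMIs in each library; bars are exact 95% intervals that cover counting error only. Vegfa is below 0 in tumor, macrophage, Ly6c2 monocyte, neutrophil and NK/T cells and above 0 in fibroblasts, and the Vcam1 intervals lie above 0 in endothelial-gated, mural, fibroblast, tumor, macrophage and NK/T cells.

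Vegfa is a target of the hypoxia-inducible factors, so its level was read in 3 ranges of the share of a cell's UMIs in a hypoxia list (11 of 12 genes, among them Car9, Slc2a1 and Bnip3), cut at the same values for both libraries. In the tumor class Vegfa was 103, 108 and 157 CPM untreated and 67.9, 80.3 and 127 with MSA-2 from the lowest to the highest range. The ratio was -0.60 (-0.67 to -0.53), -0.43 (-0.49 to -0.37) and -0.31 (-0.36 to -0.27), with the ratio closest to 0 in the highest range. The ranges are parts of a continuous score and not cell types. In macrophages the levels were 171, 255 and 378 untreated and 87.1, 108 and 192 with MSA-2, with ratios of -0.97, -1.24 and -0.98. The hypoxia list made up 0.281% and 0.256% of UMIs in the tumor class and 0.149% and 0.180% in macrophages, and the part of hypoxia in the Vegfa values was not tested.

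**Figure D5:**
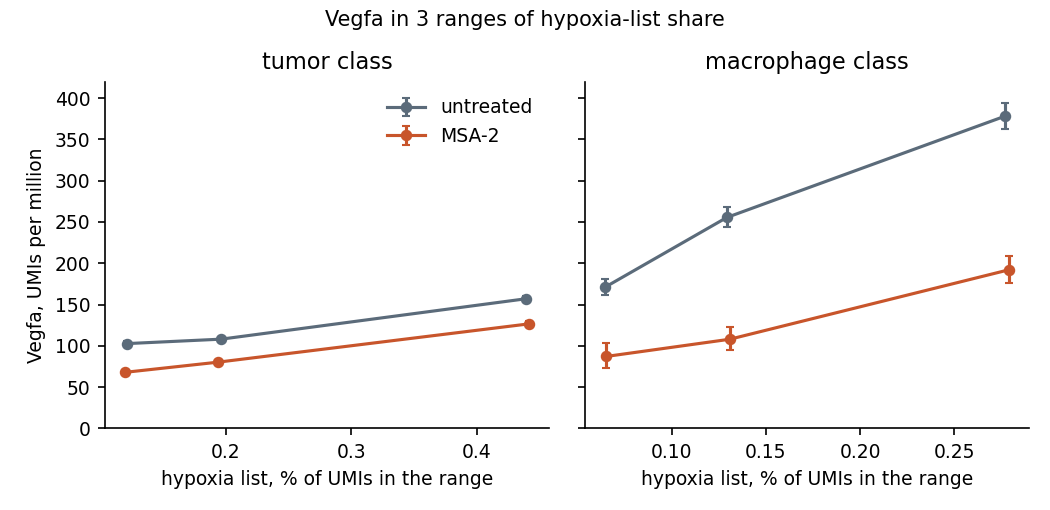
Vegfa level in CPM (exact 95% Poisson intervals) against the share of UMIs in the hypoxia list, for 3 ranges of that share in the tumor class (left) and macrophage class (right). Vegfa climbs with the share in both libraries, and MSA-2 lies below untreated in each range, from 67.9 against 103 to 127 against 157 in the tumor class.

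Vcam1 was higher with MSA-2 well beyond the endothelium. In the tumor class it stood at 184 and 313 CPM, a ratio of 0.77 (0.75 to 0.79). All 11 tumor clusters had an interval above 0, with ratios from 0.44 to 1.30, and the share of thinned cells with a UMI went from 22.8% to 36.8% (83.8% and 91.2% unthinned). Macrophages had 116 and 188 CPM (0.70, 0.60 to 0.80), with intervals above 0 in 4 of 4 clusters. Fibroblasts had 287 and 448 (0.64, 0.53 to 0.76). NK/T cells, the measure of background above, had 21.7 and 40.9 (0.92, 0.46 to 1.35), which was not read as expression by these cells. Mural cells had 27.8 and 88.2 on only 5 and 14 UMIs (1.66, 0.11 to 3.49). Neutrophils had 1 untreated and 238 MSA-2 UMIs, too few without MSA-2 for a comparison (1.38, -1.11 to 6.69). In fibroblasts with 1 CPM added, 6.96% of 12275 genes were at least 2-fold higher and 7.15% at least 2-fold lower, with none of the 6 members that had enough UMIs.

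Nrp1, which also binds semaphorins and is carried by regulatory T cells and macrophages, had different directions in different classes. It was higher in the tumor class, at 35.1 and 48.6 CPM (0.47, 0.42 to 0.52). The tumor clusters led by Galnt13 (69 and 1390 cells) and by Pcdh9 (85 and 1152 cells) were nearly confined to the MSA-2 library and had 94.1 and 80.0 CPM of Nrp1 there. In the 8 tumor clusters with at least 100 cells in each library, a choice made after the data were seen, the ratio was 0.00 (-0.06 to 0.07), with 3 intervals below and 4 above 0. Nrp1 was lower in fibroblasts (73.2 and 45.4, -0.69, -0.94 to -0.43), in macrophages (81.1 and 64.7, -0.33, -0.48 to -0.17, with 2 of 4 clusters below 0 and ratios from -1.80 to 0.47) and in NK/T cells (47.6 and 24.2, -0.98, -1.5 to -0.49), although in each of the 4 NK/T clusters its interval included 0. With marker gates in place of clusters, which took in many cells of tumor clusters, the ratio was 0.11 in fibroblasts and 0.41 in macrophages, and at resolution 0.5 it was -0.13 (-0.29 to 0.02) in macrophages.

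Pecam1, also a protein of leukocytes and platelets, was higher in NK/T cells, at 47.4 and 87.4 CPM (0.88, 0.58 to 1.18). The make-up of that class differed, with 260 of 1523 untreated and 123 of 299 MSA-2 cells in the cluster led by granzyme genes, where the Pecam1 ratio was 0.49 (0.10 to 0.87), and the interval lay above 0 in 2 of 4 clusters. It was lower in macrophages, at 26.3 and 13.2 (-1.0, -1.34 to -0.67, but -0.27, -0.59 to 0.03, with a marker gate in place of the clusters), and in the tumor class, at 3.00 and 2.34 (-0.36, -0.56 to -0.16). Flt1 was measured in mural cells at 290 and 315 CPM (0.12, -0.47 to 0.71) and in Ly6c2 monocytes, where VEGFR1 serves migration, at 28.7 and 8.78 (-1.71, -2.66 to -0.86). The monocyte ratio rests on 63 and 14 UMIs and, as for Vegfa, on subclusters that hardly overlapped between the libraries. Mural cells also held Angpt2, at 61.3 and 132 on 11 and 21 UMIs (1.11, -0.01 to 2.31), of which 1 MSA-2 cell held 13, and no Kdr, Tek, Pecam1, Sele or Selp UMI in either library, where the exact upper limit of a count of 0 is 20.5 CPM untreated and 23.2 with MSA-2. Tek had 15 and 92 UMIs in fibroblasts (6.14 and 9.34 CPM, 0.61, -0.19 to 1.5). In the tumor class Sele had 1 and 31 UMIs and Selp 13 and 74.

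The ligands around these receptors were read in the other classes by the same lists. Fibroblasts had 4 of 6 tested tip and growth genes at least 2-fold higher and 0 lower, with a median of 1.25, among them Adm, the vasodilator adrenomedullin, at 61.4 and 408 CPM (2.73), and Apln at 3.27 and 24.1 (2.88) on 8 and 237 UMIs. Angpt1, the stabilizing TIE2 ligand, stood at 29.9 and 123 CPM in fibroblasts (2.04, 1.70 to 2.40) and at 16.2 and 7.61 in the tumor class (-1.09, -1.19 to -0.99). Angptl4, a lipase inhibitor that acts on vessel permeability, was higher in fibroblasts (79.4 and 368, 2.21) and in the tumor class (13.7 and 38.8, 1.5). Angptl2 (173 and 74.9, -1.21) and Svep1 (306 and 155, -0.98), of the same angiopoietin-related list, were lower in fibroblasts. The 5 genes of that list had a median of -0.87 in fibroblasts. In macrophages Pdgfb went from 76.6 to 6.75 (-3.51) and Pgf from 5.79 to 22.2 (1.94), and Alcam, an adhesion molecule, from 222 to 628 (1.5). Over all lists, fibroblasts had 59 of 77 genes tested with 8 higher and 9 lower, the tumor class 74 with 3 and 3, and macrophages 57 with 12 and 5. Over all genes the shares were 6.96% and 7.15%, 2.61% and 1.64%, and 6.14% and 3.69%, in the same order.

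The genes whose levels most resembled each member were found by Pearson correlation of log2 CPM over 20 points, 10 cell classes in each library, among 7075 genes. The points share libraries and differ in depth, and small classes such as the 41 untreated neutrophils weigh as much as large ones, so these are descriptions. Kdr was closest to Ttc9 (0.98), Angpt2 to the junction gene Esam (0.97), Flt1 to Pcdh1 (0.92), Tek to Dchs1 (0.96) and Pecam1 to Icam2 (0.93). Sele and Selp were closest to each other (0.91), and next to Erg and Tspan7 in both cases. Esam and Erg were themselves markers of the endothelial gate, which selected cells for UMIs in its markers. Their likeness to Angpt2, Sele and Selp was therefore partly built in by the gate. Vcam1 (Dst, 0.90), Nrp1 (Irf2bpl, 0.96) and Vegfa (Mroh1, 0.79) were closest to the genes given in brackets.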

How the data were processed

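The authors made droplet-based 10x Chromium 3′ libraries from pooled tumors and deposited raw UMI counts per feature and barcode, without normalization, for barcodes that Cell Ranger called as cells. Per the file headers the version was 7.0.1, and the submitters' processing notes name 7.0.0, the mm10 build and Seurat 4.3.0. The median depth is in the text, and ratios of few UMIs are imprecise.

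The filter asked for 500 or more detected genes and a mitochondrial share of 20% or less (14039 of 14386 untreated, 13963 of 14617 MSA-2 barcodes passed), and Scrublet in scanpy 1.11.5 (0.8% per 1000 barcodes) removed 705 and 570. Cells were integrated by reciprocal PCA in Seurat 5.3.0 under R 4.3.3 (2000 of 3000 ranked variable genes, 30 dimensions, resolution 1, seed 1). Of the variable genes, 197 were barred, namely the 10 members, the lists and interferon-pattern genes. Clusters were named from marker lists at a score of at least 0.2 with 3 markers in at least 10% of cells, a rule settled with the clusters in view. Clusters with 3 or more keratin genes among the 10 leading genes were named tumor-like or left unnamed. Myeloid cells were clustered again.

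UMIs were summed per class and library and scaled to CPM. Intervals are exact at 95% (Poisson, conditional binomial, Clopper-Pearson), also for a count of 0. Gene lists used genes with at least 20 UMIs and 1 CPM added. The named genes are all 10 members, at most 4 genes with most UMIs of each list, the 5 highest and 5 lowest ratios in the gate, and the genes most like each member. Ackr1 is also named from its list as the 1 gene past 2-fold. Gja5, Mki67, Prox1, Ephb4, Cpe, Aplnr, Car4, Cd36 and Rgs4 were named after their values were seen. Computations used Python 3.11.15 (scipy 1.17.1, numpy 2.4.6, pandas 2.3.3) and were tested on simulated data. Alternatives were tried for the filter, doublets, gate, resolution, class definition, scaling (edgeR 4.0.16 TMM), thinning and low-count limits. Positions come from GENCODE M21 and promoter sequences from RefSeq GRCm38.p6. The members and lists were chosen with earlier results of these data known.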

Additional observations from a re-analysis of the deposited data

Results flagged for a closer look

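For 5 of the 10 genes, the interval of the ratio lay above 0 in one cell class and below 0 in another. For Kdr and Sele, it lay above 0 only in classes where their low counts were not read as expression. So did 35.3% of the 8015 genes with at least 20 UMIs in endothelial-gated cells. The difference between the classes was not tested, since there was 1 library per condition, and the classes hold cells of the same 2 libraries.

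Vegfa had a log2 ratio of 0.74 in fibroblasts and of -2.70 in Ly6c2 monocytes, whose subclusters hardly overlapped between the libraries. Nrp1 had 0.47 in the tumor class, on tumor clusters that were partly confined to the MSA-2 library, and -1.14 in endothelial-gated cells. Pecam1 had 0.88 in NK/T cells and -1.0 in macrophages, or -0.27 with a marker gate, whose interval included 0. Kdr had 3.46 in Ly6c2 monocytes, on only 1 untreated and 8 MSA-2 UMIs, and -1.21 in endothelial-gated cells. Sele had 4.81 in the tumor class, on 1 untreated and 31 MSA-2 UMIs, and -0.82 in endothelial-gated cells. These low counts of Kdr and Sele outside the gate were not read as expression there, which leaves Vegfa, Nrp1 and Pecam1.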

How the results depend on the processing

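No paired analysis was possible because there was 1 library per group. Of 201 alternative log2 ratios, 164 moved by less than their counting interval, 34 moved further and 3 reversed, and of 39 counts of list genes 5 moved. In the gate, scaling to the 12 gate markers gave Kdr -0.73, Flt1 -0.47, Nrp1 -0.67, Angpt2 -0.20, Pecam1 -0.077, Selp 1.49 and Vcam1 1.30, which follows from the lower share of these markers in the MSA-2 gate. Leaving out cells with at least 3 mural or fibroblast markers gave Flt1 -0.76, Sele -1.86 and Selp 1.41. TMM factors gave Flt1 -0.78 and Pecam1 -0.39, and equal weight per cell gave Angpt2 -0.35, Sele -2.20 and Selp 0.27, and the cause was not tested. Both gate alternatives other than TMM and equal weight were added after the data were seen.

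For Vegfa in the tumor class the ratio was -0.34 with a marker gate that kept 39 and 22 cells, -0.53 with TMM and -0.41 in clusters shared by the libraries (added after the data were seen). For Vcam1 there it was 1.18 with the marker gate, 0.87 with equal weight and 0.70 with TMM. For macrophages, Vegfa was -1.15 at resolution 0.5 and -0.46 with a marker gate, and Vcam1 0.59 with that gate, of whose cells 38.2% lay in tumor clusters. With marker gates Nrp1 reversed in macrophages (0.41) and in fibroblasts (0.11), and Vegfa in fibroblasts (-0.50), where 83.0% of gated cells lay in tumor clusters. The share of gated cells with Pecam1 was 17.9 percentage points lower with MSA-2 after thinning to 1500 UMIs, but 1.94 points higher at 1000 UMIs and 1.41 higher without thinning. With a limit of 10 UMIs, 7 list genes were at least 2-fold higher in the gate, against 4 at 20, and with 10 CPM added 3 in place of 5 Notch, BMP and sphingosine-1-phosphate genes were lower. The gate held a larger share of cells in the MSA-2 library under each of 6 alternatives, but a smaller one (52 and 44 cells) without cells with at least 3 mural or fibroblast markers. Depth limited Tek, Sele and Vegfa in the gate, with 14 to 49 UMIs per library.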

Other observations

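Other endothelial subtype lists gave further values in the gate. Cycling markers summed to 429 untreated and 650 MSA-2 CPM, a log2 ratio of 0.60 (0.39 to 0.81), and cells with at least 2 of the 6 markers numbered 26 of 63 and 43 of 81. Ube2c, a mitotic ubiquitin-conjugating enzyme, stood at 107 and 189 CPM, and Birc5, which encodes survivin, at 80.1 and 137, whereas Mki67 (-0.12) and Cdk1 (0.30) had intervals that included 0. The same list stood higher in the tumor class, at 938 and 1028 CPM, and the part of tumor RNA in the gate was not tested. The capillary list as a whole had a ratio of -0.19 (-0.25 to -0.13), but its genes went different ways. Gpihbp1, which carries lipoprotein lipase to the capillary lumen, stood at 1426 and 615 CPM (-1.21), and the water channel gene Aqp1 at 748 and 401 (-0.90), whereas Fabp4, a fatty acid carrier, stood at 3362 and 3702 (0.14). Car4 (13 and 92 UMIs, 2.06, 1.22 to 3.02) and Cd36 (48 and 191 UMIs, 1.23, 0.77 to 1.72) were higher with MSA-2. Rgcc had -0.32, and Rgs4 had only 4 and 2 UMIs.

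Arterial markers had a ratio of -0.62 (-0.99 to -0.26), with the gap junction gene Gja4 at 57.7 and 31.2 CPM and the Notch target Hey1 at 60.9 and 17.9. Gja5, another gap junction gene, went the other way on 2 and 18 UMIs (2.41, 0.35 to 5.56), and Fbln5 (-0.46, -1.10 to 0.20) and Sema3g (0.56, -0.89 to 2.21) had intervals that included 0. The lymphatic list had -1.06 (-1.48 to -0.65), and 8 of 63 and 12 of 81 gated cells held at least 2 of its markers. Its defining factor Prox1 had only 3 and 1 UMIs, Mmrn1 had 21 and 0 and Lyve1 had 5 and 13, while Flt4 stood at 78.5 and 26.4 CPM and Pdpn at 51.3 and 46.3. Pecam1 and Kdr differed in the part of their UMIs that lay in the gate, 30.6% and 47.4% for Pecam1 and 77.6% and 63.4% for Kdr.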
